A study of Mus musculus with 6 samples.

Results

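The genes that encode collagen hydroxylases and lysyl oxidases were compared between HIF-2α-deficient and control mouse lung endothelial cells kept at low oxygen. The group holds 10 genes, chosen by name: the collagen prolyl 4-hydroxylase subunits P4ha1, P4ha2 and P4hb, the lysyl hydroxylases Plod1, Plod2 and Plod3, and the lysyl oxidases Lox, Loxl1, Loxl2 and Loxl3. A probe set was used where the platform annotation names a member and no other gene, and the probe set with the highest mean over the 6 arrays stood for a gene. Of the 10 genes, 9 had such a probe set, and 6 of these were among the 12277 genes tested: all 6 hydroxylase genes and no lysyl oxidase. Both probe sets annotated to Loxl2 are also annotated to a second gene, Gm21451, so Loxl2 has no value here.

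Endothelial cells, which line blood vessels, were isolated from mouse lungs, selected repeatedly with endothelial markers and kept for 16 h at 0.5% oxygen, and total RNA from 3 control and 3 knockout samples was hybridised to 1 array each. Per the labels, knockout cells came from VE-Cadherin-Cre mice with both copies of HIF-2α floxed, where the VE-cadherin promoter drives the recombinase in endothelial cells. The labels describe the controls in 3 ways, as wild type, as floxed on both copies, and as carrying the Cre with 1 floxed and 1 wild-type allele. HIF-2α, encoded by Epas1, is an oxygen-sensitive transcription factor. Every sample was hypoxic, which leaves the response to oxygen itself unmeasured. Whether replicates are separate cultures or mice is not stated in the labels, and the p-values cover the spread between these samples alone, which may be technical.

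Collagen chains are modified in the endoplasmic reticulum before they fold into a triple helix. Prolyl 4-hydroxylase, a complex of catalytic α subunits (P4ha1, P4ha2) and the β subunit protein disulfide isomerase (P4hb), hydroxylates prolines, which makes the helix stable at body temperature, while the PLOD enzymes hydroxylate lysines. These enzymes need molecular oxygen, iron, 2-oxoglutarate and ascorbate. Outside the cell the copper enzymes of the lysyl oxidase family oxidise lysines and hydroxylysines of collagen and elastin, which starts the cross-links of the fibres. P4HA1, P4HA2, PLOD2 and LOX are textbook genes of the hypoxia response, and HIF-1 is known to drive them in several cell types.

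The promoters of the hydroxylases are shown because the study removed a factor that binds the HIF core letters ACGTG or GCGTG. The reference table (RefSeq, GRCm38.p6) held a window for 5 of the 10 genes, from 250 bases before to 50 after the start of the gene. These letters were searched on both strands, so CACGT and CACGC count as matches, and overlapping matches count separately. The 3 windows printed here are those of the catalytic subunits of prolyl 4-hydroxylase and of Plod3, with matches in capitals.

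P4ha1 (chr10:59323046-59323345, plus strand): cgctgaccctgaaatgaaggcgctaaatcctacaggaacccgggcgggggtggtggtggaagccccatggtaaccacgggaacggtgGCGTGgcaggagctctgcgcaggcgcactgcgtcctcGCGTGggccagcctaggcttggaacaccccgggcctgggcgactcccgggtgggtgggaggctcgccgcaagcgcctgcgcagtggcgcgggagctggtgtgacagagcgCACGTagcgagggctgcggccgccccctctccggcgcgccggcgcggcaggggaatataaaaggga
P4ha2 (chr11:54100674-54100973, plus strand): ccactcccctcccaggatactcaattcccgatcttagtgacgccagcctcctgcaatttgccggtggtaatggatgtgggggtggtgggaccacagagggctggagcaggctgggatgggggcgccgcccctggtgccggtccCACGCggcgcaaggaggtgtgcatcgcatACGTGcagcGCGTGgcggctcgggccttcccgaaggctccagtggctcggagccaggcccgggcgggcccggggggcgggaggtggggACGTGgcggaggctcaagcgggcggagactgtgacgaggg
Plod3 (chr5:136986769-136987068, plus strand): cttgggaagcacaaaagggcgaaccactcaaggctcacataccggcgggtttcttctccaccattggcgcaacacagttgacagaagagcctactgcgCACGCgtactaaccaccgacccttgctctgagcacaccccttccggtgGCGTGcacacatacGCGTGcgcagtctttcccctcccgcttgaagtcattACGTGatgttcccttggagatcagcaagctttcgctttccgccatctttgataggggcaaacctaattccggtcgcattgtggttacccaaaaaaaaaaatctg

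P4ha1 had 3 matches, P4ha2 4, Plod3 4, P4hb 3 and Plod1 2. At least 1 match was present in 43.8% of 32851 windows of this length, at least 2 in 20.6%, at least 3 in 8.93% and at least 4 in 3.86%. The letters are rich in G and C, as are most of these windows (70.3% in P4ha1 and P4ha2, 53.3% in Plod3, against a median of 52.7%). Among the 9690 windows with 60% G and C or more, at least 3 matches were present in 19.8% and at least 4 in 9.47%. A match is a description of the letters and not a binding site.

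Array quality bears on these genes. Controls 1 and 3 were nearly alike (their log2 difference had an SD of 0.14 across genes), whereas the other pairs of arrays within a group ranged from 0.31 to 0.68, the widest being knockouts 2 and 3. A single axis held 87.1% of the variance within groups, with control 2 and knockout 2 at one end and knockout 3 at the other. Medians ran from 5.52 to 5.66 intensity units. Epas1 itself read 9549 ± 90.9 intensity units in the control group and 9392 ± 469 in the knockout group (mean and SD of 3 arrays; limma adjusted p = 0.753); the place of its probes relative to the deleted part was not used here, so genotype rests on the labels. All 10 endothelial markers were above a signal of 16 on some array, from Emcn, the brightest (25263 ± 1470 units in controls and 23991 ± 2449 in knockouts), to the dim Vwf (49.3 ± 17.6 and 40.8 ± 7.40) and Cldn5 (56.0 ± 18.4 and 25.5 ± 11.3), and 4 of them fell. Of 13 fibroblast and mural markers 12 lay below 16 on all arrays (Pdgfrb, Dcn and Col1a1 among them), as did all 11 epithelial and mesothelial ones.

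No hydroxylase gene passed the test between knockout and control arrays. With limma and Benjamini-Hochberg adjustment over all genes, 0 of 6 passed at 0.05 and 0 of 6 had an unadjusted p under 0.05, beside 13.7% (8.63% higher and 5.07% lower in knockout) and 32.4% of all genes tested. In a fit over probe sets, 0 of their 8 tested probe sets passed, beside 7.65% of all. The arrays of the groups overlapped for each of the 6, whereas they did not overlap in 36.2% of all genes. The 6 log2 differences, knockout minus control on the log2(intensity + 16) scale, ran from -0.23 in Plod2 to 0.37 in Plod3, with a median of 0.05 against 0.01 over all genes.

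**Figure D1:**
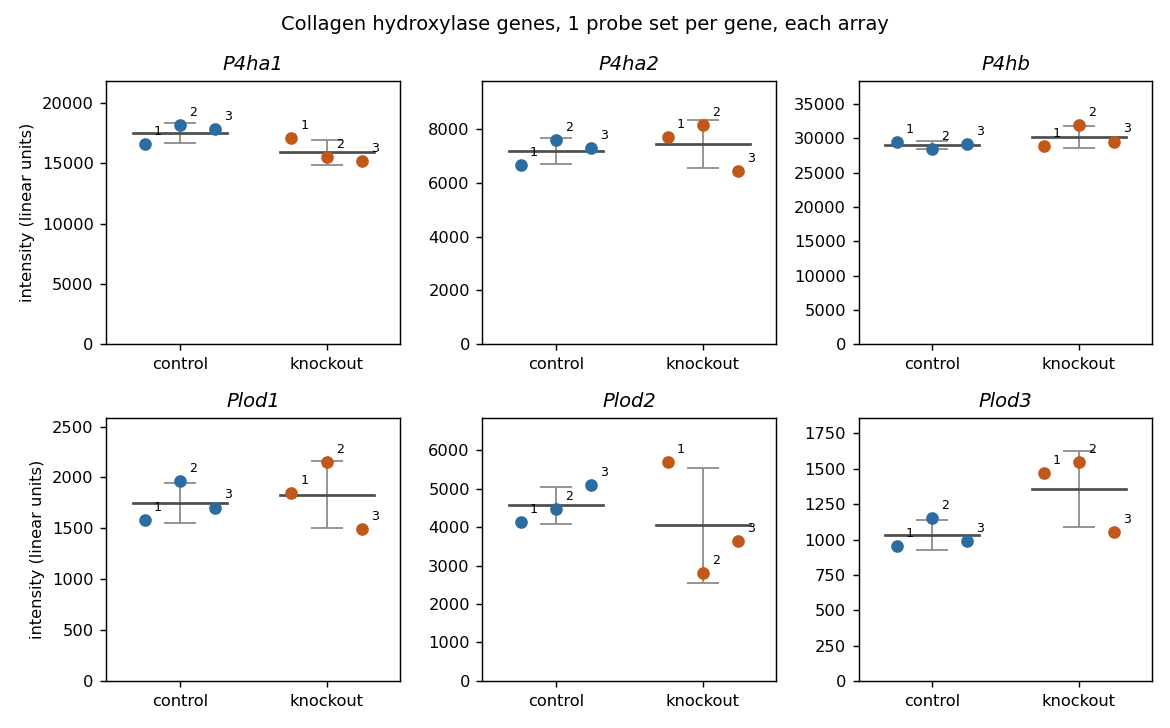
Intensity (linear units, axes from 0) of the 6 measured hydroxylase genes on each of the 3 control and 3 knockout arrays; points carry the array number, bars show the mean ± SD. The groups overlap in every panel, Plod2 is widely spread in knockout arrays (2805 to 5709), and in Plod3 knockouts 1 and 2 lie above all controls while knockout 3 (1052) does not.

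P4ha1 encodes the most widely expressed catalytic α subunit. It read 16624, 18198 and 17831 intensity units in controls 1 to 3 and 17086, 15515 and 15178 in knockouts 1 to 3. Knockouts 2 and 3 were below all controls, but knockout 1 lay above control 1. The log2 difference was -0.14 ± 0.06 (SE, limma adjusted p = 0.202), with a 95% interval from a 1.23-fold fall to a 1.02-fold rise. At this gene's SE, a log2 difference of 0.29 in size would have been needed to pass.

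A second, dimmer P4ha1 probe set gave 1983, 2479 and 2139 units in controls and 2456, 1865 and 1367 in knockouts. Its difference was -0.25 ± 0.24 (limma adjusted p = 0.573 over probe sets), the same sign with a wider spread. In both P4ha1 probe sets control 2 was the highest control and knockout 3 the lowest of all arrays.

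P4ha2 encodes the other widely used α subunit. Its signal was 6640, 7594 and 7303 units in controls and 7693, 8147 and 6436 in knockouts, so that the knockout group held both the highest and the lowest array. The log2 difference was 0.04 ± 0.11 (limma adjusted p = 0.858), with a 95% interval from a 1.18-fold fall to a 1.26-fold rise.

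P4hb encodes the β subunit, which also works as a protein disulfide isomerase outside this complex. It read 29503, 28406 and 29118 units in controls and 28896, 31945 and 29522 in knockouts. The difference of 0.05 ± 0.05 (limma adjusted p = 0.482) had the narrowest interval of the 6 genes, from a 1.05-fold fall to a 1.13-fold rise. The log2 differences of the 3 subunits of prolyl 4-hydroxylase thus ran from -0.14 to 0.05, none past the threshold.

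The log2 ratio of P4ha1 to P4ha2 within an array, a measure that scaling of the array leaves nearly unchanged, was lower in the knockout arrays. With the main P4ha1 probe set it was 1.32, 1.26 and 1.29 in controls and 1.15, 0.93 and 1.24 in knockouts. That is a difference of -0.18 with no overlap between the groups. With the second P4ha1 probe set in its place, the groups overlapped, as knockout 1 lay inside the control range. The difference of -0.18 became -0.10 without knockout 2 and -0.03 with the spike-in signal in the fit, and it was negative under all 19 other settings. The other filters, 75th percentile scaling, eBayes setting and replicate block left it unchanged, and these could hardly move such a ratio. Only the change of such a ratio has a meaning, since probe sets differ in brightness for the same amount of RNA. Of 6 ratios computed among the prolyl and among the lysyl hydroxylases, chosen after the data were seen, this one and Plod3/Plod1 had groups apart. The two-sided exact permutation p was 0.1 for each of these, the smallest that 3 against 3 arrays allow, and 0.3 after Benjamini-Hochberg adjustment over the 6 ratios. Among all single genes tested the groups were apart in 36.2%, and the share among ratios of other gene pairs was not computed. The ratio of P4ha2 to P4hb differed by -0.01 (exact p = 0.9).

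Plod1 encodes the lysyl hydroxylase that acts on lysines of the triple-helical part. It read 1579, 1961 and 1705 units in controls and 1843, 2156 and 1493 in knockouts. The difference was 0.06 ± 0.16 (limma adjusted p = 0.882), with an interval from a 1.30-fold fall to a 1.40-fold rise. Its second probe set stayed between 4.59 and 4.63 units on all arrays, at the floor of the deposited values.

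Plod2 encodes the lysyl hydroxylase of the collagen telopeptides, whose product directs the type of cross-link. Its main probe set gave 4136, 4469 and 5094 units in controls and 5709, 2805 and 3649 in knockouts. Knockout 1 was above all controls and knockouts 2 and 3 below all of them. The log2 difference was -0.23 ± 0.29 (limma adjusted p = 0.651), and its 95% interval, the widest of the 6, reached from a 1.97-fold fall to a 1.44-fold rise. A log2 difference of 1.32 would have been needed to pass at this SE.

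The second Plod2 probe set gave 4155, 3849 and 4687 units in controls and 4872, 3169 and 4057 in knockouts, again with knockout 1 highest and knockout 2 lowest. Its difference was -0.09 ± 0.18 (limma adjusted p = 0.837 over probe sets). In this probe set knockout 3 lay inside the control range, whereas in the main one all 3 knockout arrays lay outside it.

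Plod3 encodes the lysyl hydroxylase that also carries glycosyltransferase activity towards hydroxylysine. It read 954, 1155 and 993 units in controls (1034 ± 107, mean ± SD, n = 3) and 1468, 1551 and 1052 in knockouts (1357 ± 267). Knockouts 1 and 2 were above all controls, and knockout 3 lay between controls 3 and 2. The difference was 0.37 ± 0.18 (limma adjusted p = 0.23), with an interval from a 1.07-fold fall to a 1.79-fold rise.

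The Plod3 value depended on the arrays used. Knockout 3 was its lowest knockout and control 2 its highest control, so leaving them out raises the difference by itself. Without knockout 3 the difference was 0.54 (limma adjusted p = 0.0385), with 3000 of 12279 genes passing and 0 member probe sets in the fit over probe sets. Without control 2 and knockout 3 it was 0.62 (adjusted p = 0.0151), with 4651 of 12276 genes passing. Without knockout 1 it was 0.31 and without knockout 2 it was 0.27, neither past the threshold. With all 6 arrays and the spike-in signal added to the fit, the difference was -0.04 (limma adjusted p = 0.994). The mean log2 spike-in signal was 10.66, 10.88 and 10.78 in controls and 11.03, 11.08 and 10.86 in knockouts. Plod3 and the spike-in signal put all 6 arrays in the same order, among controls as well as knockouts. The part of the spike-in signal in the result was not tested.

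Relative to Plod1 on the same array, Plod3 was higher in all 3 knockout arrays than in any control. The log2 ratio was -0.72, -0.76 and -0.77 in controls and -0.33, -0.47 and -0.50 in knockouts, a difference of 0.32 (exact p = 0.1, adjusted 0.3). This difference stayed between 0.26 and 0.40 under 19 other settings, the spike-in covariate among them. The other filters, 75th percentile scaling, eBayes setting and replicate block could hardly move such a ratio and left it unchanged. The ratio of Plod2 to Plod3 differed by -0.60 (exact p = 0.2), with knockout 1 inside the control range.

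**Figure D2:**
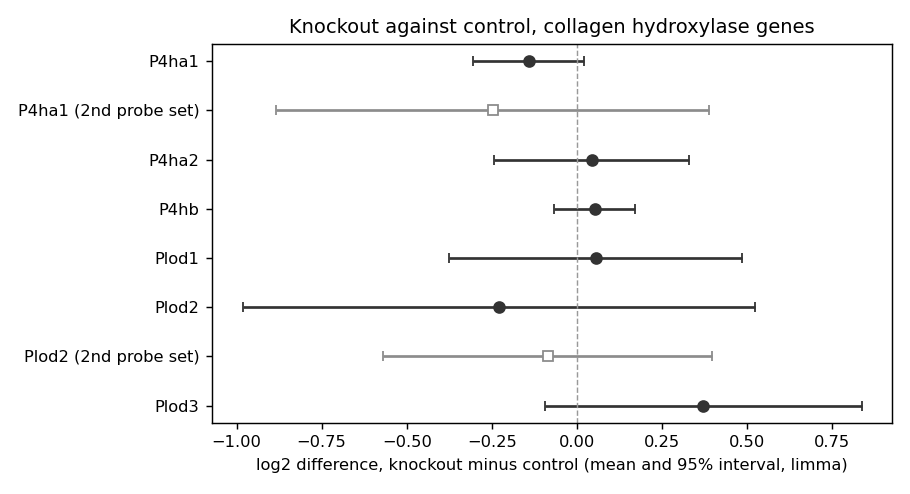
Log2 difference, knockout minus control, with its 95% interval from limma for the 6 measured hydroxylase genes (filled circles) and the second probe sets of P4ha1 and Plod2 (open squares). Every interval includes 0; that of P4hb is narrow (-0.07 to 0.17) and that of Plod2 wide (-0.98 to 0.52).

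P4ha1, P4ha2, Plod1 and Plod3 each had control 2 as the highest control and knockout 3 as the lowest knockout, 4 of 6, beside 42.0% of all genes tested; the difference between these shares was not tested. P4hb and Plod2 did not share that order. The SD on the log2 scale was larger among knockout than among control arrays in 6 of 6, beside 80.5% of all genes. For Plod2 it was 0.52 in knockouts against 0.15 in controls, and for P4hb 0.08 against 0.03.

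The lysyl oxidases were at the floor of the deposited values in both groups. Lox, the founding enzyme of the family, had 3 probe sets, all between 3.97 and 4.37 intensity units on every array. Loxl1, which acts mainly on elastin fibres, had 2 probe sets between 4.17 and 4.22 units, and Loxl3 had 1 between 3.86 and 3.88. All these values are below a signal of 16, so no level and no fold can be given, and a change at low level was not detectable. Lox, Loxl1 and Loxl3 were not tested, since their means were among the lowest 40% of probe sets.

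Loxl4, a further family member outside the 10 genes and named after its values were seen, was above the floor. It read 821, 1194 and 887 units in controls and 739, 755 and 445 in knockouts, so that every knockout array was below every control. The difference of -0.59 ± 0.27 did not pass (limma adjusted p = 0.214), and its second probe set was at the floor, at no more than 10.6 units.

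Around the hydroxylases, 8 of 45 tested genes that work with them changed, 3 higher and 5 lower, which is 17.8% against 13.7% of all genes. The 4 lists named 67 genes, of which 5 had no probe set naming them alone and 17 were under the filter. The median difference of the 45 was -0.01, against 0.01 over all genes. Of the 8, only Col5a1 kept its call when controls 1 and 3 were averaged to 1 sample, or with the spike-in signal in the fit.

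Of 16 tested genes of collagen folding and secretion, 1 rose, 1 fell and 14 did not pass (median 0.05). Of all genes 8.63% were higher and 5.07% lower. P3h4, a non-catalytic partner of collagen-modifying enzymes that supports lysyl hydroxylation, read 84.2, 147 and 60.3 units in controls and 803, 909 and 488 in knockouts. All knockout arrays were above all controls, and the gene rose by 2.75 ± 0.39 on the log2 scale (limma adjusted p = 0.0204). The call was lost without control 1, control 3, knockout 1 or knockout 2, and its difference ran from 1.98 to 3.32 under 19 other settings.

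Fkbp14, a prolyl isomerase of the endoplasmic reticulum that helps collagen fold, was lower. It read 2500, 2325 and 2526 units in controls and 1401, 1171 and 1376 in knockouts. It fell by 0.89 ± 0.08 on the log2 scale (limma adjusted p = 0.00964), and lost its call without control 1 or control 3. Its second probe set was at the floor, at no more than 4.07 units. The prolyl 3-hydroxylases did not pass, with log2 differences of 0.19 for P3h1, 0.48 for P3h2 and -0.14 for P3h3. Serpinh1, the collagen chaperone HSP47, was at 24117 ± 325 and 25821 ± 1841 units (adjusted p = 0.328). The third α subunit gene, P4ha3, was at the floor in all 6 arrays.

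The collagen chains went both ways, with 2 higher, 2 lower and 6 not passed among 10 tested (median -0.01). The shares over all genes were 8.63% higher and 5.07% lower. Col5a1, a chain of fibrillar collagen V, read 433, 603 and 503 units in controls and 15.7, 16.7 and 10.97 in knockouts. It fell by 4.11 ± 0.15 on the log2 scale (limma adjusted p = 0.00128), with 2 knockout arrays under a signal of 16, so that the size rests on the pseudocount and is not a fold. The call held whichever array was omitted. Its 2 other probe sets were dimmer, with log2 differences of -2.74 and -0.94 (limma fit over probe sets, adjusted p = 0.0139 for the first and 0.245 for the second).

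Col13a1, a transmembrane collagen, fell by 0.54 ± 0.07 (limma adjusted p = 0.0174). Col5a3 and Col8a1, the latter a short-chain collagen of vessel walls, rose by 1.08 ± 0.18 (adjusted p = 0.0295) and 0.84 ± 0.18 (adjusted p = 0.0473). In the fit over probe sets, Col8a1 had an adjusted p of 0.0646 from this probe set, 0.0474 from another (log2 difference 1.61) and 0.0869 from a further one (1.41). The second Col5a3 probe set was at the floor, at no more than 4.59 units. Col5a3 and Col8a1 each lost their call without any single control or without knockout 1, and Col13a1 without control 1, control 3 or knockout 1. The basement membrane chains Col4a1 and Col4a2, main substrates of these enzymes in endothelium, had differences of -0.02 and -0.05 and did not pass. Col1a1 and Col3a1 lay at the floor.

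Of 10 genes of copper and ascorbate supply, 2 fell and 8 did not pass (median -0.14), beside 5.07% of all genes lower. Slc23a2, a sodium-dependent ascorbate transporter, read 1423, 1787 and 1740 units in controls and 1037, 968 and 963 in knockouts. It fell by 0.72 ± 0.10 (limma adjusted p = 0.0201), with all knockout arrays below all controls, and lost its call without control 2, control 3, knockout 1 or knockout 2. Its second probe set was at the floor, at no more than 4.36 units. Cutc, a copper homeostasis protein, fell by 0.62 ± 0.13 (adjusted p = 0.0486) and lost its call with any 1 of the 6 arrays left out. Atp7a, the pump that loads copper onto lysyl oxidases, had a difference of -0.37 ± 0.39 (adjusted p = 0.574).

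Of 9 tested genes of collagen processing and fibre assembly, 0 passed with limma, beside 13.7% of all genes. Beside 32.4% of all genes, 1 of the 9 had an unadjusted p under 0.05. That gene was Tll1, a protease that removes collagen propeptides and activates lysyl oxidase. It read 1218, 827 and 1427 units in controls and 585, 462 and 693 in knockouts, with a difference of -0.96 ± 0.26 (limma adjusted p = 0.0799). Sparc, a collagen-binding matrix protein, was at 40609, 40751 and 41247 units in controls and 40787, 40741 and 39825 in knockouts.

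**Figure D3:**
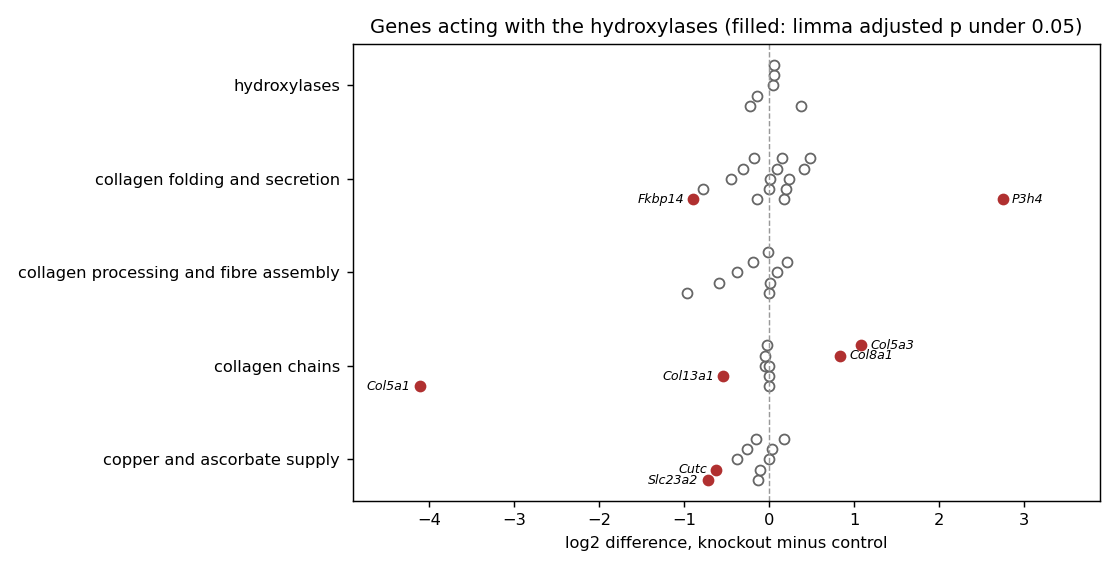
Log2 difference, knockout minus control, of the 6 measured hydroxylase genes and of 45 tested genes that act with them, by list; filled points passed a limma adjusted p of 0.05 and are named. The hydroxylases lie between -0.23 and 0.37 with none filled, while Col5a1 (-4.11) and P3h4 (2.75) lie farthest from 0.

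Of 10 endothelial markers 4 fell, Tek, Erg, Tie1 and Pecam1, with log2 differences of -1.24, -0.67, -0.65 and -0.34 (limma), beside 5.07% of all genes lower. The other 6 did not pass. An unadjusted limma p under 0.05 was found in 7 of the 10 and groups apart in 7, beside 32.4% and 36.2% of all genes. Their median log2 difference was -0.38, against 0.01 over all genes. Of the 8 leukocyte markers, 6 lay below a signal of 16 on all arrays, Ptprc, Csf1r and Lyz2 among them. Cd68 read 3925 ± 293 and 971 ± 192 units and Cd14 183 ± 49.5 and 30.4 ± 10.6 in controls and knockouts, and both fell (limma adjusted p = 0.00762 and 0.0162). The summed level of the list ran from 3847 to 4511 units in controls and from 808 to 1196 in knockouts. Most of it was Cd68 alone, at 3688 to 4252 units in controls and 756 to 1126 in knockouts. The fibroblast and mural list summed to 90.3 to 134 units in controls and 128 to 265 in knockouts. Of these sums Tagln gave 32.1 to 74.9 units in controls and 70.2 to 207 in knockouts (limma adjusted p = 0.144). Its 12 other markers were below 16 units on all arrays. The endothelial list summed to 102685 to 111833 and 80049 to 90320, and the epithelial and mesothelial list to 52.0 to 52.6 and 52.3 to 53.2. The part of these marker lists in the values above was not tested, and fewer cells of a type cannot be told apart from less RNA per cell. The collagen-making fibroblast markers Pdgfra, Dcn, Lum and Col1a1 were below 16 units in both groups.

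**Figure D4:**
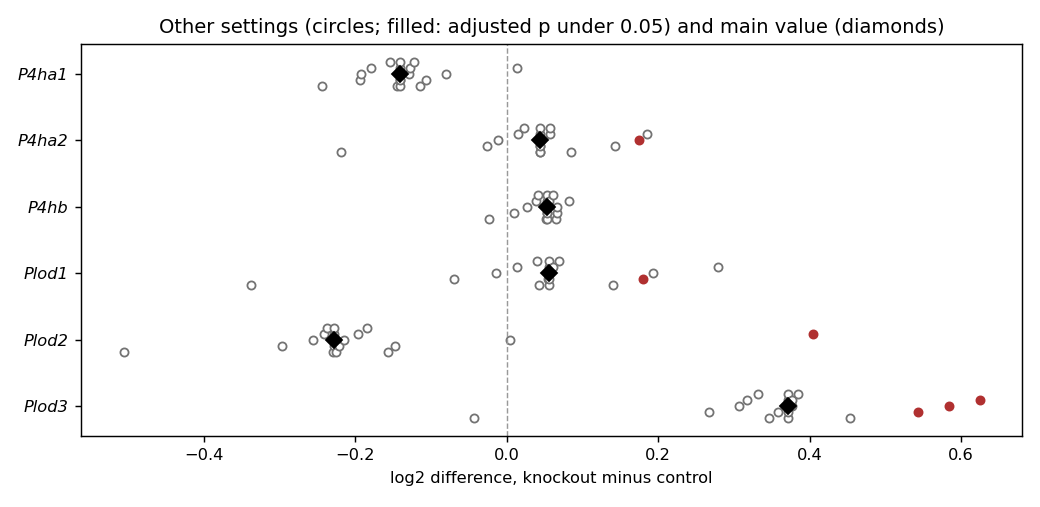
Log2 difference, knockout minus control, of each measured hydroxylase gene as reported (diamonds) and under 19 other settings (circles; filled where the limma adjusted p was under 0.05). Plod3 passed in 3 settings, P4ha2, Plod1 and Plod2 in 1 each (array weights), and P4ha1 and P4hb in none. Of all genes, 8541 of 12277 passed with array weights. In the other settings where Plod3 passed, 3000 of 12279 passed without knockout 3, and 4651 of 12276 without control 2 and knockout 3.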

How the data were processed

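The values used are linear intensities, normalized by the authors before they were deposited, for 45101 probe sets on 6 arrays. MAS5 and GCRMA are named in the submitters' processing notes, and their settings are not given in the sources used here. No further normalization was applied. Dim probe sets lie at a floor near 4 units, where changes cannot be read.

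Gene names come from the platform's annotation, in which 34958 probe sets name 1 gene, 932 name more than 1 (left unnamed) and 9211 do not appear. Of the first, 34754 matched a current gene of the RefSeq table (GRCm38.p6), and 0 symbols changed. Arrays were grouped by their titles. Values were taken as log2(intensity + 16), the 40% of non-control probe sets with the lowest mean were left out, 27023 stayed, and the brightest probe set stood for each of 12277 genes. Groups were compared with limma 3.58.1 (R 4.3.3; lmFit and eBayes, two-sided), adjusted by Benjamini-Hochberg over all genes at 0.05. The fit was tested on simulated data with independent noise in each gene and array. In these arrays a single axis held 87.1% of the variance within groups, so that test does not give the error rate here. Precision is limited by the number of arrays.

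The members, lists, tests and alternatives were chosen with earlier results of these data known. The text names Epas1, all members, and from each list the genes past the threshold or, with none, that with the smallest p; other genes are examples chosen after their values were seen. Alternatives were other pseudocounts, filters and scalings, eBayes and array weight settings, means of probe sets, a replicate block, a spike-in covariate, controls 1 and 3 averaged, and arrays left out. Figures used matplotlib 3.10.9.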

Additional observations from a re-analysis of the deposited data

How the results depend on the processing

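Of 19 alternatives, 3 changed how many hydroxylase genes passed: array weights, leaving out control 2 and knockout 3 together, and leaving out knockout 3. With array weights, 8541 of 12277 genes passed, 4 of them hydroxylases (and 4 of their probe sets), with 28 of the related genes. P4ha1, P4hb and Plod2 turned to 0.0129, -0.0228 and 0.4037. The estimate of the weights stopped before converging and gave knockout 1 a weight of 206, against 0.111 to 2.61 for the others. Without control 2 and knockout 3, 4651 of 12276 genes passed, with 1 hydroxylase (Plod3, 1 probe set) and 15 related genes. With the spike-in covariate, 444 genes passed, 36.9% of them higher against 63.0% as reported, with 2 related genes. P4ha2, Plod1 and Plod3 turned to -0.2188, -0.3375 and -0.0428, and P4ha1 went to -0.2443. In that fit P4ha1, P4ha2 and Plod1 had unadjusted limma p-values of 0.0404, 0.0211 and 0.0232. Their adjusted p-values were 0.139 to 0.189, and 0 hydroxylases passed. Leaving out 1 array gave 205 to 3000 genes, 0 to 1 hydroxylases and 1 to 12 related genes. Over these, P4ha2 ran from -0.0267 to 0.1431, Plod1 from -0.0696 to 0.1933 and Plod2 from -0.5058 to 0.0048. P4ha2 and Plod1 turned sign without control 1 or knockout 2, and Plod2 without knockout 2. Averaging controls 1 and 3 gave 194 genes (49.0% higher) and 1 related gene, and no filter gave 883 and 5. The causes were not tested.

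Deviations of same-numbered arrays correlated at -0.47, 0.84 and 0.80. Since a single axis held 87.1% of the variance within groups, these values cannot settle whether replicate numbers pair the samples. With the replicate block 2995 genes passed, 0 of them hydroxylases. Lysyl oxidases at the floor of the signal could not be assessed under any setting.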
